A study of Mus musculus with 30 samples.

Results

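The mitosis genes described here are 34 genes whose products take a cell from mitotic entry to the separation of its daughters. They were chosen by gene symbol and not by a measured value, though with earlier results of these data known. All 34 were found in each of the 3 deposited RNA-seq tables of a mouse model of therapy-related myeloid neoplasm, which hold 11740 genes for sorted LSK cells, 11275 for bone marrow and 20619 for bone-derived stromal cells. In one list of 9 roles they comprise cyclins and their kinase (Ccna2, Ccnb1, Ccnb2, Cdk1), the entry kinases Aurka and Plk1, the spindle checkpoint (Bub1, Bub1b, Ttk, Mad2l1), the machinery of anaphase onset (Ube2c, Cdc20, Espl1), kinetochore proteins (Cenpa, Cenpe, Cenpf, Ndc80, Nuf2), the chromosomal passenger complex (Aurkb, Birc5, Incenp, Cdca8), spindle proteins (Kif11, Kif2c, Tpx2, Nusap1), proteins of the midzone and cytokinesis (Kif4, Kif23, Prc1, Ect2, Racgap1, Anln) and the chromosome proteins Mki67 and Top2a.

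All mice were C57BL/6, with no age or sex stated in the labels. LSK cells, the Lin- Sca1+ Kit+ fraction of marrow that holds the blood stem cells and early progenitors, were sorted about 2 months after transplant and before disease, with 3 libraries in each of 4 groups. EAP with ENU libraries came from recipients of Egr1+/-, Apc del/+ marrow with an shRNA against Trp53, where donor and recipient had been given the alkylating mutagen ENU. EAP libraries had the same alleles and shRNA without ENU. Transplanted WT libraries had wild-type marrow with a Luciferase shRNA placed in wild-type recipients, and WT libraries came from mice with neither shRNA nor transplant, so transplantation and the vector cannot be told apart between these 2 groups. For the library EAP 1 the label on the transplant names wild-type marrow, against its other labels.

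Marrow libraries came from diseased mice, 6 with AML and 6 with MDS, and all 12 mice carried Egr1+/-, Apc del/+ marrow cells. The AML mice had the Trp53 shRNA and the MDS mice the Luciferase shRNA, so disease and shRNA cannot be told apart. ENU was given to donor and recipient for AML 1, 4 and 5 and for all MDS mice, to the recipient alone for AML 6, and to neither for AML 2 and 3. Stromal cells were grown from compact bone of mice given 100 mg/kg ENU (3 libraries) or 10% ethanol as the mock treatment (3 libraries) 1 month earlier, and were collected at passage 1 or 2.

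Cyclin-dependent kinase 1 with cyclin A or B starts mitosis, Aurora and Polo-like kinases build the spindle, and the checkpoint holds the cell in metaphase until each kinetochore is attached. Cdc20 and the ubiquitin-conjugating enzyme Ube2c then act with the anaphase-promoting complex to mark cyclin B and securin for destruction, which frees separase (Espl1) to open the cohesin rings that join sister chromatids. Transcripts of these genes accumulate late in the cell cycle and are scarce in resting cells, and long-term stem cells of the marrow are mostly at rest while progenitors, erythroblasts and early granulocyte precursors divide often. Late in the cycle such promoters are switched on by the MuvB core complex with B-Myb and FOXM1 at an element called the CHR, while the factor NF-Y binds nearby CCAAT boxes.

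RefSeq windows on GRCm38.p6, from 250 bases before to 50 after each annotated start, covered 30 of the 34 genes in 32 windows. Ccna2, Aurkb, Incenp and Tpx2 had none. The letters TTTGAA, searched on both strands as the core of the CHR, lay in 25 windows of the mitosis genes, or 78.1%, and in 17.9% of all 32851 windows. Within 40 bases of the start they were found in the windows of 21 mitosis genes, beside 4.20% of all windows. CCAAT, on both strands, lay in 78.1% of the mitosis windows and in 37.4% of all, and 20 of the 30 genes had a window with both, beside 6.95% of all windows. TATAAA was in 1 mitosis window (3.1%), beside 13.6% of all. Such a match describes letters only. The 100 bases just before the RefSeq start are shown for 6 of these genes to let the spacing of the 2 motifs be seen. They were taken from the windows whose CHR letters lie wholly before that start, 12 of the 32, beside 16.0% of all windows. Of those within 100 bases of the start, the gene with the closest letters in each role gave 5 genes, since the other roles held none, and Ube2c was added after its values had been seen. Letters after the start, such as those of Ccnb2 and Kif23, were not used in this choice. Capitals mark the CHR letters (TTTGAA, or TTCAAA on the other strand) and CCAAT (or ATTGG). The stretches are chr2:164769829-164769928 on the plus strand for Ube2c, chr10:69352913-69353012 on the minus strand for Cdk1, chr4:118437344-118437443 on the minus strand for Cdc20, chr11:99024190-99024289 on the minus strand for Top2a, chr19:37376282-37376381 on the plus strand for Kif11 and chr7:80294376-80294475 on the plus strand for Prc1.
Ube2c: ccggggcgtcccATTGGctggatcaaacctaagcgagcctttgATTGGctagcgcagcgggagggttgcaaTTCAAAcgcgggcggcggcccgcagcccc
Cdk1: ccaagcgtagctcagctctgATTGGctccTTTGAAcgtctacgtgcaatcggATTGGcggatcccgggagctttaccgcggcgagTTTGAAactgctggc
Cdc20: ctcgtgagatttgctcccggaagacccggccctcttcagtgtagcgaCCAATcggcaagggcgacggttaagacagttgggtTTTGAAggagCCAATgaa
Top2a: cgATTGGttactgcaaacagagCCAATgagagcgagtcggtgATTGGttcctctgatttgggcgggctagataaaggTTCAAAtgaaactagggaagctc
Kif11: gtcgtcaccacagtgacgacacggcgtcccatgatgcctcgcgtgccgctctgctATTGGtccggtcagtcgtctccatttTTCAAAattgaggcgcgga
Prc1: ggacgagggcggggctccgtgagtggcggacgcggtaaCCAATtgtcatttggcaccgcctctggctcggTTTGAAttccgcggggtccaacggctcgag

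With -1 as the last base before the RefSeq start, the CHR letters began at -29 in Ube2c, -18 in Cdc20, -23 in Top2a, -19 in Kif11 and -30 in Prc1, and at both -71 and -15 in Cdk1. Gene spans given below come from GENCODE, which can place the start elsewhere. Its first bases of Ube2c (164769898), Cdk1 (69352938), Cdc20 (118437352) and Prc1 (80294450) lie within these stretches. By those spans the CHR letters of Ube2c and those at -15 in Cdk1 lie inside the gene. Those of Prc1 cross its first base. A second Prc1 window, for another annotated start, held the CHR letters at -5 and a CCAAT box at -37. In each of the 6 stretches at least 1 CCAAT box lay upstream of the CHR letters nearest the start. Windows without the CHR letters belonged to Birc5, Bub1, Ccnb1, Cenpe, Mad2l1, Nuf2 and Nusap1.

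LSK and marrow values are the authors' normalised expression signal, and stromal values are TPM, the usual transcript measure scaled per length and depth. The LSK columns sum to between 808377 and 1437201, the marrow columns to between 803746 and 1118648 and the stromal columns to between 924162 and 939600. Marrow values resolved into whole reads, between 17341986 and 21698808 per library. The LSK libraries WT 2, transplanted WT 3 and EAP 1 stood apart from the other 9. Their log2 levels fell with transcript length, by slopes of -0.28, -0.36 and -0.59 per doubling of length over 8587 genes, against slopes between -0.08 and 0.28 in the other 9. Sca1 (Ly6a) was at least 78.0 in all LSK libraries, and Kit was between 65.3 and 598, with its 3 lowest values in EAP 1, WT 2 and transplanted WT 3. In bulk samples, fewer cells of a type and less RNA per cell cannot be told apart. The labels do not say whether each LSK or stromal library is 1 mouse, so p-values measure only the spread between these libraries.

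The 34 genes together made up 0.363% to 0.449% of the signal in EAP with ENU LSK libraries, 0.401% to 0.456% in EAP, 0.372% to 0.436% in transplanted WT and 0.265% to 0.302% in WT. All 9 libraries from transplanted mice lay above the 3 from mice without a transplant. In marrow the share was 0.253% to 0.900% in AML and 0.534% to 1.15% in MDS, and in stromal cells it was 0.0729% to 0.222% after ENU and 0.0415% to 0.201% after mock treatment. Within each of these pairs the groups overlapped. Levels between genes can be compared per length in stromal cells, where Top2a (mean 103 TPM over the 6 libraries) and Anln (78.7 TPM) were highest and Espl1 (5.76 TPM) lowest. Per length in marrow, as reads scaled per length and library total, Mki67 (179) and Birc5 (155) were highest and Ccnb1 (12.4) lowest. Ccnb1 ranked 7 of the 34 in stromal cells, at 66.2 TPM. Whether its low marrow value reflects its expression or the counting of its reads was not tested.

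**Figure D1:**
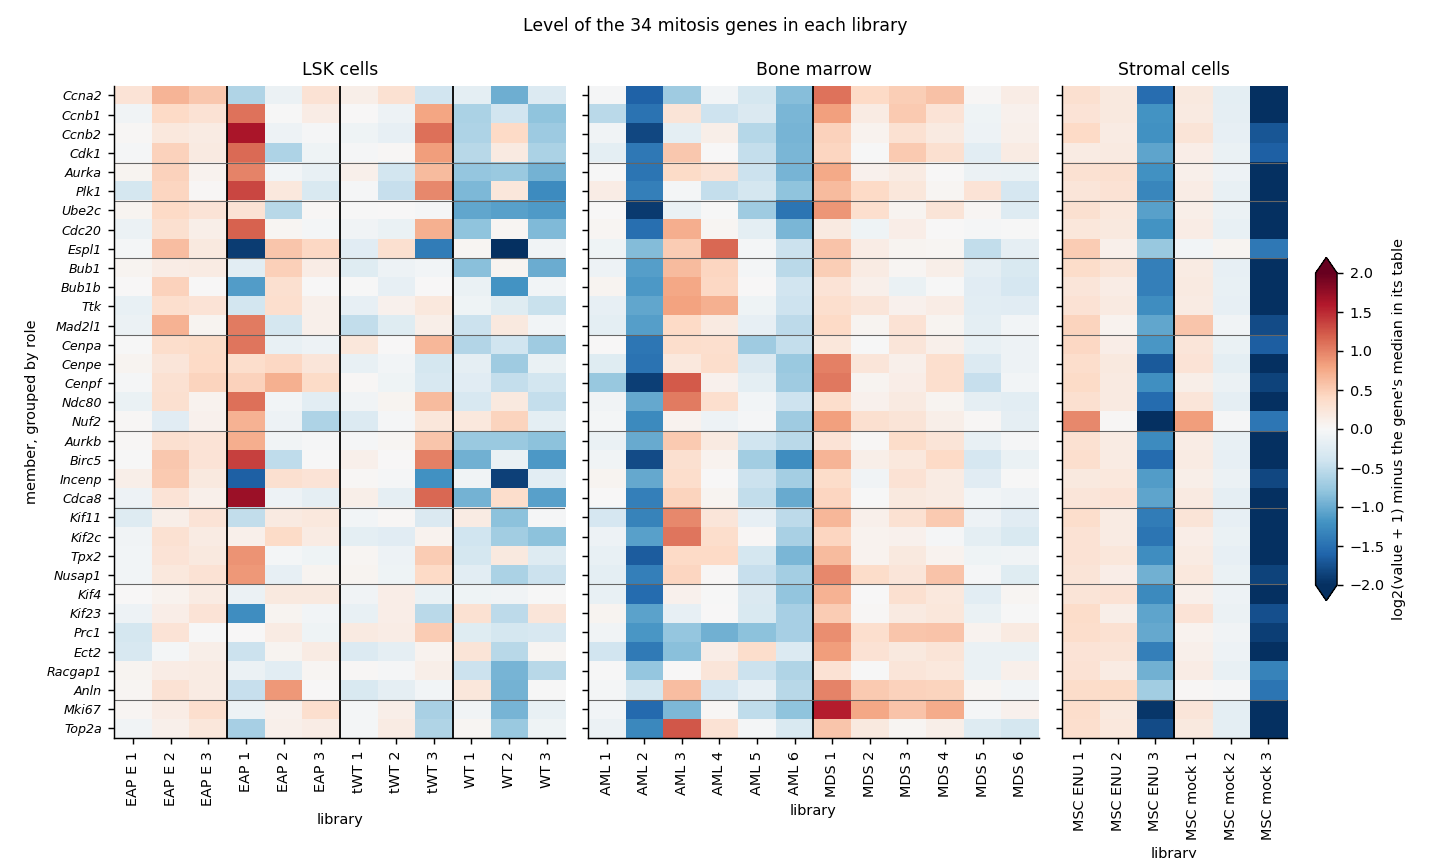
Level of each of the 34 mitosis genes (rows, by role) in every library (columns, by group). Values are on the log2 scale used for testing, minus that gene's median in the same table. The WT columns of the LSK block are low for most genes, AML 2 is the lowest marrow library for 33 genes, and mock 3 is the lowest stromal library for 33.

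Transplanted WT LSK cells, set against WT LSK cells, address what transplantation with a vector does to the cells in the absence of the Egr1, Apc and Trp53 changes. Of the 34 mitosis genes, 30 had a positive log2 difference and the median was 0.48, beside -0.00069 over all 11730 genes tested. No gene of the 34 passed an adjusted p of 0.05 in limma over all genes, where 0.0256% of all genes did. At an unadjusted p under 0.05 there were 9, all higher in transplanted WT, beside 3.15% of all genes that were higher at that level. The 3 transplanted WT libraries all lay above the 3 WT libraries for 10 of the genes (Ube2c, Aurka, Aurkb, Ccnb1, Birc5, Cenpa, Kif2c, Nusap1, Prc1 and Racgap1), beside 7.71% of all genes, and none lay wholly below. The count of 9 was 3 without transplanted WT 3 and 5 without WT 3.

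Ube2c (chromosome 2 at 164769898-164778822, GRCm38), the conjugating enzyme that passes ubiquitin to the anaphase-promoting complex, had signals of 256, 257 and 253 in transplanted WT 1 to 3, against 124, 121 and 116 in WT 1 to 3. Each group was tight and the groups were far apart. The mean was 255 ± 2.05 in transplanted WT and 120 ± 4.14 in WT (SD, n = 3 each), a log2 difference of 1.08 (SE 0.23) with a limma adjusted p of 0.233. Aurkb, the kinase of the passenger complex, had 189, 197 and 285 in transplanted WT, against 115, 115 and 109 in WT, and a log2 difference of 0.95 (SE 0.25, limma adjusted p = 0.442). Its highest value was in transplanted WT 3, one of the libraries that stood apart. Racgap1, which activates the GTPase switch of the contractile ring, had 125, 122 and 135 in transplanted WT, against 91.0, 64.5 and 84.2 in WT (log2 difference 0.68, SE 0.19, limma adjusted p = 0.466). Aurka, the kinase of the spindle poles, had 122, 88.1 and 177 in transplanted WT, against 66.6, 67.6 and 58.8 in WT (log2 difference 0.94, SE 0.33, limma adjusted p = 0.583). None of these 4 genes, which had the smallest p of the 34, passed the threshold.

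By role, the median log2 difference of transplanted WT minus WT was 0.94 for the passenger complex, 0.87 for the entry kinases, 0.72 for the machinery of anaphase onset and 0.61 for the cyclins with Cdk1. It was 0.41 for spindle proteins, 0.35 for the checkpoint, 0.23 for the kinetochore, 0.15 for the chromosome proteins and 0.05 for the cytokinesis group. The extremes were Birc5 (survivin, of the passenger complex) at 1.12 and the midzone motor Kif23 at -0.19. Lowest and highest in their roles, Plk1 had 0.80 and Aurka 0.94, Espl1 0.57 and Ube2c 1.08, Incenp 0.32 and Birc5 1.12, and Top2a 0.10 and Mki67 0.20. Among cyclins Ccna2 had 0.49 and Ccnb1 0.84, and among kinetochore genes Nuf2 had -0.18 and Cenpa, the centromeric histone, 0.87. Checkpoint genes ran between -0.11 for Mad2l1 and 0.46 for Bub1, and spindle genes between 0.13 for Kif11 and 0.55 for Nusap1. These roles also differ in transcript length, which moved with the libraries that stood apart.

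**Figure D2:**
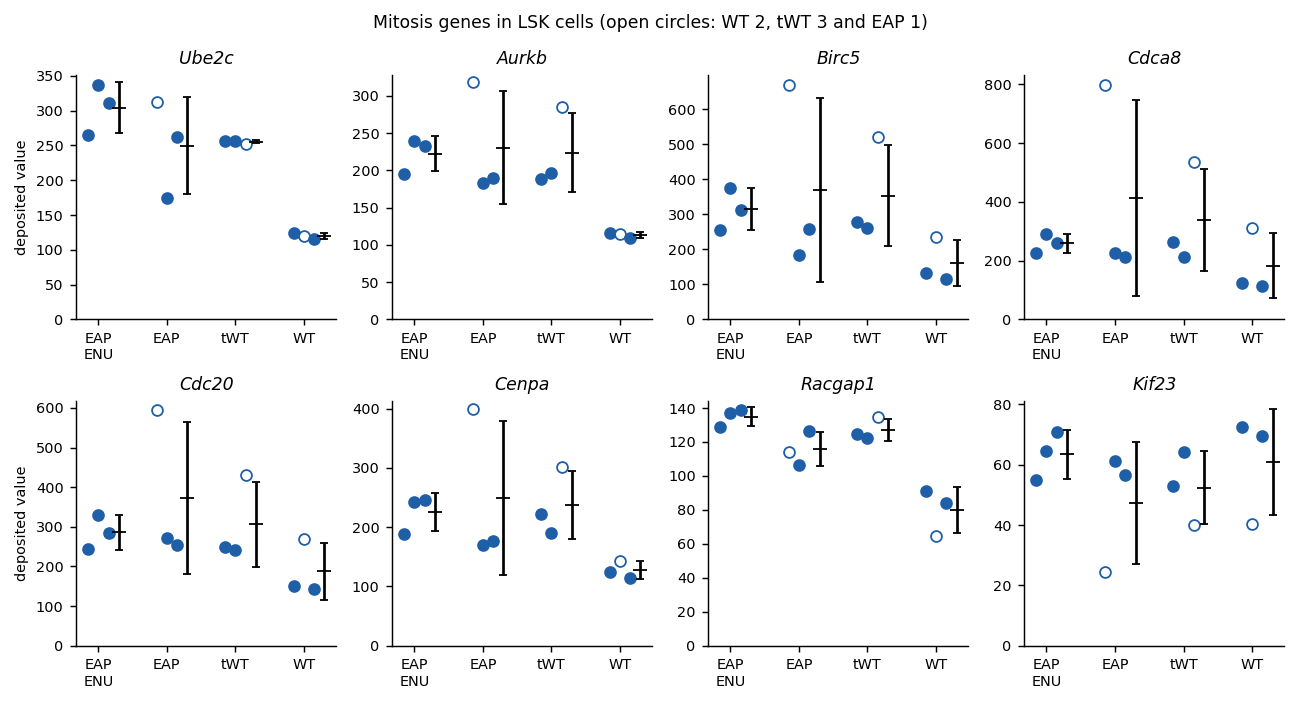
Normalised signal of 8 mitosis genes in each LSK library, with bars for group means and SD (n = 3) and open circles for WT 2, transplanted WT 3 and EAP 1. Ube2c and Aurkb show 3 transplanted WT points above 3 WT points, while Kif23 shows overlap.

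Among the mitosis genes the length pattern of WT 2, transplanted WT 3 and EAP 1 was plain. Over the 12 members with transcripts under 2500 bases, the mean log2 level in those 3 libraries minus that in the other 9 had a median of 0.66 and was positive for 11, with Cdca8 at 1.31 and Ube2c, the exception, at -0.05. Over the 10 members above 4000 bases the median was -0.46, with Mad2l1 (0.55) the only positive one and Espl1 lowest at -2.30. Incenp, a passenger gene of 3236 bases, was at -1.70. Espl1 had signals of 3.43, 23.3 and 20.9 in EAP 1 to 3, 13.1, 19.5 and 5.25 in transplanted WT 1 to 3, and 15.9, 1.07 and 14.7 in WT 1 to 3. The low value in each group is the library that stood apart.

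**Figure D3:**
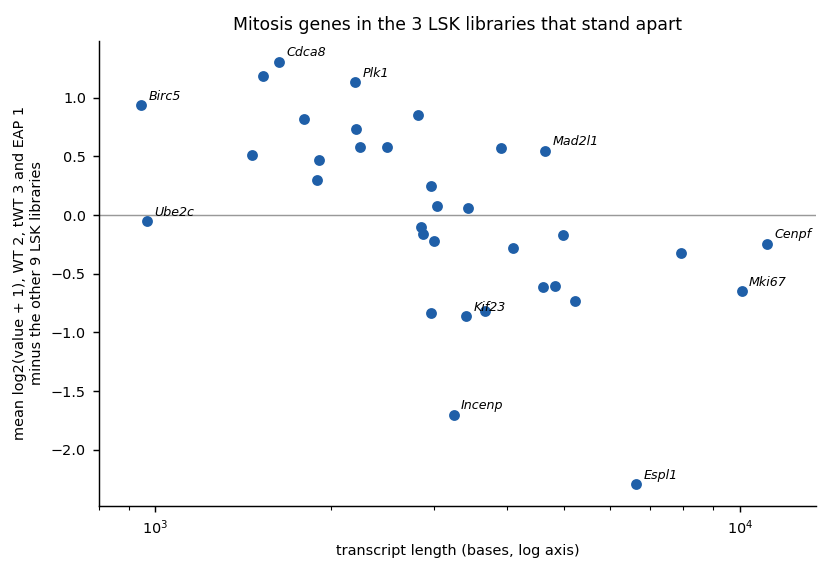
Transcript length of the 34 mitosis genes (log axis, bases) against the mean log2(value + 1) of WT 2, transplanted WT 3 and EAP 1 minus that of the other 9 LSK libraries. Short genes such as Cdca8 sit above 0, long genes such as Mki67 below, and Espl1 is lowest at -2.30.

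The number of mitosis genes that passed between transplanted WT and WT depended on these libraries, in alternatives added after the data had been seen. With a term for the 3 libraries in the model, 9 genes were called higher in transplanted WT (Aurkb, Ube2c, Birc5, Cdca8, Cdc20, Ccnb1, Racgap1, Cenpa and Aurka), beside 1.11% of all genes. With the 3 libraries left out, 8 were called higher (Cdca8, Aurkb, Ube2c, Birc5, Cdc20, Cenpa, Bub1 and Ccnb2), beside 1.47% of all genes, and the median of the 34 was 0.35. Aurkb, Birc5, Cdc20, Cdca8, Cenpa and Ube2c were called both ways. With the 3 libraries left out, the slopes on transcript length still differed between the groups. They were 0.25 and 0.24 in WT 1 and 3, against -0.012 and -0.0094 in transplanted WT 1 and 2. In the 4 libraries that remain, 22 genes were higher in both transplanted WT than in both WT libraries, beside 31.3% of all genes, and 3 (Kif23, Ect2 and Anln) were lower in both, beside 34.5%.

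With each library's trend on transcript length removed and all 12 libraries kept, none of the 34 was called, 10 had an unadjusted p under 0.05 and were higher, beside 3.35% of all genes, and 32 were positive with a median of 0.54. With both the trend removed and the term for the 3 libraries, 7 were called higher, beside 0.776% of all genes. They included Ube2c (log2 difference 0.80, limma adjusted p = 0.0192), Aurkb (0.86, limma adjusted p = 0.0295), Birc5 (0.84), Cdca8 (0.79), Racgap1 (0.72) and Cdc20 (0.61). With the trend removed and the 3 libraries left out, none was called and 21 had an unadjusted p under 0.05, all higher, beside 8.88% of all genes. Ube2c, Aurkb and Cdca8 each had a limma adjusted p of 0.0643 there.

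Other cell-cycle genes, in lists of genes that are not among the 34, were mostly positive between transplanted WT and WT, with 0 called in limma. At an unadjusted p under 0.05 there were 8 of the further mitosis genes and 2 of the replication genes. Over all genes 3.15% were higher at that level, and the share in both directions together was larger. Of 56 further mitosis genes 54 were positive with a median of 0.42, and of 30 DNA replication genes 28 were positive with a median of 0.35. Of the 16 core subunits and partners of the anaphase-promoting complex 11 were positive with a median of 0.15. Of the 19 genes of cell-cycle transcription 11 were positive with a median of 0.13. The smallest p among these lists belonged to the CDK4/6 inhibitor Cdkn2c, at 44.6 ± 7.33 in transplanted WT and 15.7 ± 5.58 in WT (SD, n = 3 each), a log2 difference of 1.49 with a limma adjusted p of 0.223. Cdca3, a trigger of mitotic entry, had 120 and 66.2 (0.85, limma adjusted p = 0.304), and cyclin D1 (Ccnd1) had a log2 difference of 1.01 (limma adjusted p = 0.544). Mybl2, which encodes B-Myb, averaged 58.6 ± 3.30 in transplanted WT and 30.2 ± 3.78 in WT (SD, n = 3 each), with no overlap and a limma adjusted p of 0.608. Foxm1 averaged 24.2 and 17.9, the p53 target Cdkn1a 34.8 and 26.4, and Trp53 308 and 300, in transplanted WT and WT in each case.

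Markers of other cell types differed in level in the same comparison. Summed stem-cell markers ran from 387 to 480 in transplanted WT, against 775 to 779 in WT, with 10 of 12 negative and 1 called (Ndn). Megakaryocyte markers summed to 363 to 411 in transplanted WT, against 86.4 to 159 in WT, with 8 of 8 tested positive and 1 called (Selp). Early granulocyte markers summed to 3227 to 7292 in transplanted WT, against 2047 to 2211 in WT, with 6 of 7 positive and 0 called. T and NK cell markers summed to 1051 to 2116 in transplanted WT, against 633 to 911 in WT, with 8 of 10 positive and 0 called, and most of that sum was Nkg7 (mean 1243 in transplanted WT and 570 in WT). Markers of basophils, eosinophils and mast cells summed to 254 to 1078 in transplanted WT, against 140 to 185 in WT, with 9 of 9 positive and 0 called. Among these Prss34 averaged 264 in transplanted WT and 18.1 in WT, and Mcpt8 83.5 and 13.4. The part of these cells in the mitosis gene levels was not tested.

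EAP LSK cells against transplanted WT LSK cells ask what the Egr1, Apc and Trp53 changes do without ENU. No mitosis gene was called, where 0.0256% of all genes were. Of the 34, 24 were positive with a median log2 difference of 0.09, beside -0.02 over all genes, and the median was -0.03 without EAP 1. A pair of long kinetochore genes had an unadjusted p under 0.05, both higher in EAP, beside 1.65% of all genes. Cenpf, a protein of the outer kinetochore corona, had 21.3, 25.8 and 20.2 in EAP 1 to 3, against 15.6, 14.3 and 12.02 in transplanted WT 1 to 3. All EAP values lay above all transplanted WT values, and the mean was 22.4 ± 2.92 in EAP and 13.97 ± 1.80 in transplanted WT (SD, n = 3 each; log2 difference 0.65, SE 0.23, limma adjusted p = 1.00). Cenpe, the kinetochore motor that moves chromosomes to the metaphase plate, had 30.1, 31.3 and 27.8 in EAP, against 21.0, 22.5 and 18.1 in transplanted WT (0.52, SE 0.23, limma adjusted p = 1.00). Kif2c, a depolymerase of kinetochore microtubules, was the only other gene without overlap, with 75.3 ± 7.996 in EAP and 59.6 ± 6.96 in transplanted WT (SD, n = 3 each), and genes without overlap and higher made up 3.80% of all genes. Mad2l1, the checkpoint protein that inhibits Cdc20, had the smallest p after Kif2c, with a log2 difference of 0.47. By role the medians lay between -0.04 for cytokinesis, which held the lowest gene Prc1 at -0.25, and 0.20 for the entry kinases.

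Trp53 itself had signals of 65.5, 132 and 106 in EAP 1 to 3, against 308, 370 and 247 in transplanted WT 1 to 3, with no overlap and a log2 difference of -1.64 (limma adjusted p = 0.655). The shRNA target was thus lower in every EAP library, though it too missed the threshold over all genes. Of the 56 further mitosis genes 39 were positive with a median of 0.10, and 0 were called, with 2 at an unadjusted p under 0.05. Over all genes 1.65% were higher at that level, and the share in both directions together was larger. The midzone motor Kif20b averaged 62.1 in EAP and 37.7 in transplanted WT (0.67), the kinetochore scaffold Casc5 41.5 and 26.8 (0.56), and both missed the threshold. Cdkn1a averaged 34.5 in EAP and 34.8 in transplanted WT, Foxm1 24.3 and 24.2, and Mybl2 50.02 and 58.6. T and NK cell markers were negative in 10 of 10, with 0 called.

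EAP with ENU against EAP asks what ENU adds. No gene of the 34 was called, where 0% of all genes were, and none had an unadjusted p under 0.05. The median was -0.02, with 13 positive. Cyclin A (Ccna2) came closest, at 155 ± 21.2 in EAP with ENU and 102 ± 31.2 in EAP (SD, n = 3 each; log2 difference 0.65, limma adjusted p = 0.909), and its groups overlapped by little: the lowest EAP with ENU library had 132 and the highest EAP library 133. Racgap1 was the only gene higher without overlap, at 129, 137 and 139 in EAP with ENU, against 114, 107 and 127 in EAP, where 6.68% of all genes were so. Cdca8, of the passenger complex, had the lowest difference at -0.39, with 227, 292 and 259 in EAP with ENU, against 798, 225 and 213 in EAP. The EAP mean there rests on EAP 1. The next smallest p values belonged to Kif23 (0.51), Ube2c (0.32) and Cenpf (-0.28). Cdkn1c, a CDK inhibitor of resting stem cells, had the smallest p of the other cell-cycle genes, at 2.35 ± 2.41 in EAP with ENU and 11.2 ± 3.46 in EAP (log2 difference -2.16, limma adjusted p = 0.909). Trp53 averaged 106.4 in EAP with ENU and 101.2 in EAP, Cdkn1a 46.8 and 34.5, Foxm1 29.9 and 24.3, and Mybl2 67.0 and 50.02.

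EAP with ENU against transplanted WT shares a group with each of the last 2 comparisons, so its values are given only beside theirs. None of the 34 genes was called, where 0.0171% of all genes were, and none had an unadjusted p under 0.05. The median was 0.09, with 22 positive, and was 0.21 without transplanted WT 3. Ube2c, Bub1, Cenpe, Anln and Incenp were higher without overlap, beside 9.90% of all genes. Cenpe had 24.3, 27.8 and 30.996 in EAP with ENU, against 21.0, 22.5 and 18.1 in transplanted WT (log2 difference 0.41), and Ube2c had 265, 337 and 312, against 256, 257 and 253 (0.25). After Cenpe the smallest p values belonged to Ccna2 (0.49), Cenpf (0.37) and Prc1, which had the lowest difference at -0.31, while Espl1 had the highest at 0.70. Trp53 averaged 106 in EAP with ENU and 308 in transplanted WT (-1.63, limma adjusted p = 0.732), and Cdkn1c 2.35 and 13.3. Foxm1, Mybl2 and Cdkn1a, whose means stand above, had log2 differences of 0.33, 0.18 and 0.35 here.

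In diseased marrow, set as AML against MDS, Prc1 was the only mitosis gene called, and it was lower in AML, where 3.20% of all genes were called. Of the 34 genes 32 had a negative log2 difference, with a median of -0.51 beside 0.04 over all 11273 genes tested, and the median was -0.29 without AML 2. At an unadjusted p under 0.05 there were 13, all lower in AML, beside 13.9% of all genes that were lower at that level. Groups did not overlap for Prc1 and Ccna2, both lower in AML, beside 2.13% of all genes.

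Prc1 (chromosome 7 at 80294450-80316259, GRCm38), the cross-linker that bundles antiparallel microtubules in the midzone, had a lowest, median and highest signal of 55.2, 71.3 and 119 in AML, against 132, 171 and 240 in MDS. The highest AML library, AML 1, lay below the lowest MDS library. The mean was 76.6 ± 22.2 in AML and 174 ± 39.2 in MDS (SD, n = 6 each), a log2 difference of -1.19 (SE 0.20) with a limma adjusted p of 0.0336. edgeR on the recovered reads also called Prc1 alone of the 34 (adjusted p = 0.0440), with a median of -0.39 for the 34 beside 0.13 over all genes. Over all genes limma called 112 higher and 249 lower, and edgeR 295 higher and 153 lower. The call was lost, with adjusted p between 0.0616 and 0.101, when any single MDS library, AML 5 or AML 6 was left out.

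Ccna2 had 71.1, 154 and 218 in AML, against 223, 302 and 471 in MDS (lowest, median, highest). The groups met without overlapping, and the log2 difference was -1.06 (limma adjusted p = 0.0536). Mki67, the perichromosomal protein known as Ki-67, averaged 1066 ± 406 in AML and 2537 ± 1102 in MDS (SD, n = 6 each; -1.25, limma adjusted p = 0.0598). The groups overlapped, with the highest AML value at 1576 and the lowest MDS value at 1512. Cyclin B1 (Ccnb1) averaged 21.8 in AML and 38.7 in MDS (-0.86, limma adjusted p = 0.0767). These 3 genes missed the threshold.

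By role the median log2 difference of AML minus MDS was -0.80 for cyclins with Cdk1, -0.66 for the chromosome proteins, -0.59 for the entry kinases, -0.58 for cytokinesis and -0.55 for the kinetochore. It was -0.46 for spindle proteins, -0.44 for the passenger complex, -0.34 for the machinery of anaphase onset and -0.13 for the checkpoint. In the cytokinesis group 5 of 6 genes had an unadjusted p under 0.05, and in the checkpoint 0 of 4, beside the 13.9% of all genes lower at that level; a difference between the roles was not tested. The checkpoint kinase partner Bub1b (0.01) and separase Espl1 (0.02) were the 2 positive genes. Within the chromosome pair Mki67 had -1.25 and the topoisomerase Top2a -0.08, with Top2a signals between 263 and 1517 in AML and between 505 and 944 in MDS. In the anaphase group Ube2c had -0.92, in the kinetochore Cenpe had -0.58 and Ndc80 -0.08, in the passenger complex Birc5 had -0.73 and Aurkb -0.35, and among spindle genes Nusap1 had -0.68 and Kif2c -0.08.

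AML 2 was the lowest of the 12 for 33 genes, and MDS 1 the highest for 20, AML 3 for 13 and AML 4 for 1 (Espl1). Summed over the 34 genes, the signal was 5991, 2468, 7817, 7051, 5061 and 3944 in AML 1 to 6, against 12058, 7971, 7931, 8284, 5861 and 6127 in MDS 1 to 6. AML 1, AML 3 and AML 4 thus lay within the MDS range, and AML 2, AML 5 and AML 6 below it. Without AML 1, 5 genes were called lower (Prc1, Ccna2, Mki67, Plk1 and Ube2c), beside 10.6% of all genes.

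**Figure D4:**
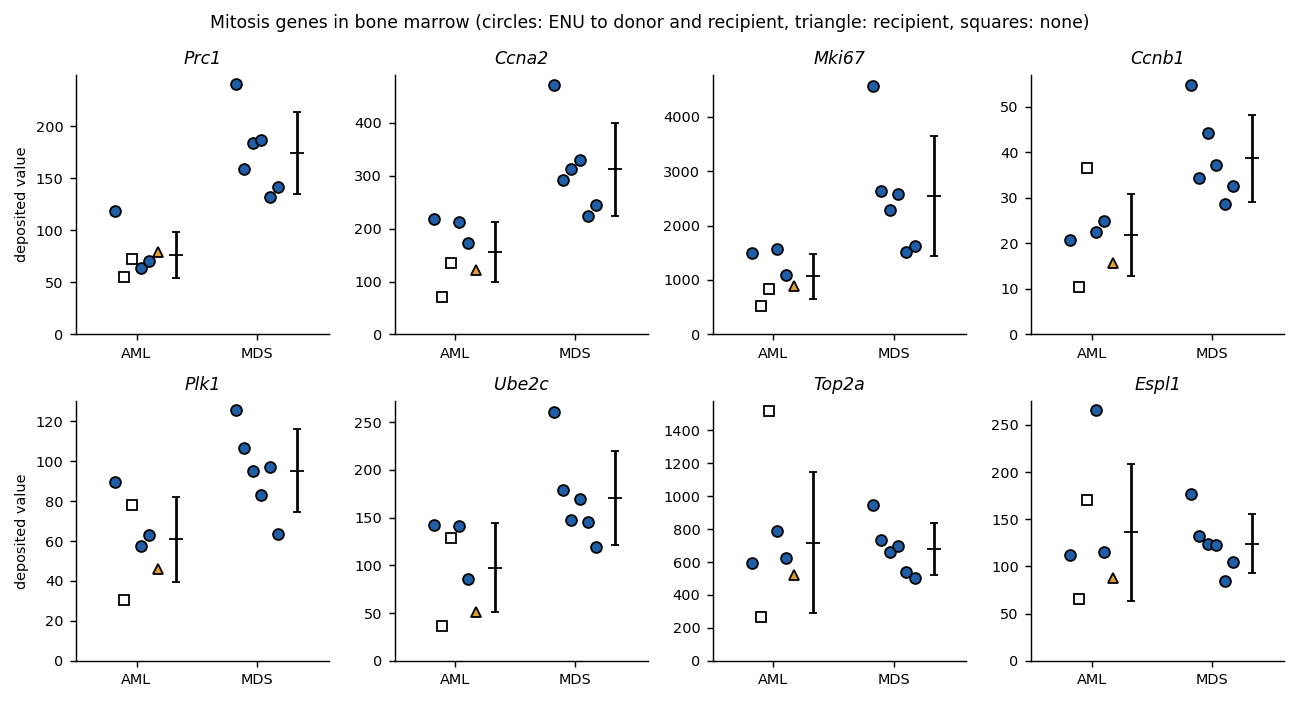
Normalised signal of 8 mitosis genes in each marrow library, AML left and MDS right, with bars for group means and SD (n = 6); circles mark ENU to donor and recipient, triangles ENU to the recipient alone and squares no ENU. Prc1 and Ccna2 show no overlap, and Top2a and Espl1 show AML values on both sides of the MDS values.

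Erythroid markers summed to 372 to 5555 in AML, against 7222 to 24915 in MDS, with 7 of 7 negative and 2 called (Epor and Tfrc). Late neutrophil markers summed to 442 to 122900 in AML, against 61624 to 98908 in MDS, with 11 of 11 negative and 0 called. Early granulocyte markers, of the dividing precursors, summed to 116 to 6629 in AML, against 3600 to 10248 in MDS, with 7 of 7 negative. T and NK cell markers summed to 95.4 to 2459 in AML, against 72.0 to 195 in MDS, with 7 of 10 positive and 0 called. The part of these cells in the mitosis gene levels was not tested.

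Of the 19 genes of cell-cycle transcription 4 were called lower and 0 higher. Over all genes 3.20% were called in either direction, a share that stands beside each count of called genes here. E2f8, a repressor of the E2F family, had a lowest, median and highest signal of 91.4, 123 and 185 in AML, against 202, 273 and 348 in MDS, with a log2 difference of -1.11 (limma adjusted p = 0.0336). Lin54, the MuvB subunit that contacts the CHR, had 32.2, 35.9 and 46.8 in AML, against 54.2, 69.0 and 76.5 in MDS (-0.82, limma adjusted p = 0.0336). Neither gene overlapped between groups, beside 2.13% of all genes that were lower without overlap. The others called were Rb1 (-1.09) and E2f2 (-1.62). Fzr1, the activator of the anaphase-promoting complex late in mitosis and in the next gap phase, was the one called gene of its list, at 102 ± 28.8 in AML and 225 ± 75.1 in MDS (SD, n = 6 each; -1.13, limma adjusted p = 0.0423). Mybl2 averaged 43.7 in AML and 74.5 in MDS (-0.86, limma adjusted p = 0.108), Foxm1 143 and 164 (-0.28), Cdkn1a 65.0 and 57.2 and Trp53 36.3 ± 14.4 and 68.1 ± 23.5 (-0.90, limma adjusted p = 0.0774). Of 54 further mitosis genes 45 were negative with a median of -0.37, and 1 was called lower, Cdkn3 (-1.32). The CDK inhibitor Cdkn2d (-1.25) was also called lower. Rb1, E2f2, Cdkn3 and Cdkn2d were named after their values had been seen. Of the 30 replication genes 15 were positive and 15 negative with a median of 0.01, and none was called.

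The 3 AML mice given ENU as donor and recipient, AML 1, 4 and 5, match the MDS mice in their ENU exposure. Against MDS none of the 34 genes was called, where 0% of all genes were, and 28 were negative with a median of -0.25, which was -0.12 without AML 5 and -0.15 without MDS 1. Prc1 and Ccna2 had an unadjusted p under 0.05, both lower, beside 6.86% of all genes. Prc1 averaged 84.4 ± 29.9 in these AML (SD, n = 3) and 174 ± 39.2 in MDS (SD, n = 6), a log2 difference of -1.06 (SE 0.25, limma adjusted p = 0.285), and Ccna2 averaged 201 in AML and 312 in MDS (-0.60, limma adjusted p = 0.335). Ccnb1 (-0.71) joined them as the third gene lower without overlap, beside 4.43% of all genes, and the next in order of p was Anln, the anillin of the cleavage furrow, at -0.58. Without AML 1 the Prc1 difference was -1.33 and passed (limma adjusted p = 0.0178). The smallest p of the other cell-cycle genes belonged to E2f8 (-0.96), Lin54 (-0.69) and E2f2 (-1.41), each with a limma adjusted p of 0.285. Foxm1 averaged 153 in AML and 164 in MDS, Mybl2 49.0 and 74.5, Cdkn1a 53.3 and 57.2, and Trp53 37.1 and 68.1. Erythroid markers summed to 1477 to 5555 in these AML libraries, and their T and NK cell markers to 202 to 2459.

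Stromal cells of ENU-treated mice against those of mock-treated mice ask whether the drug alters the marrow environment before any transplant. No mitosis gene was called, where 0% of the 12089 genes tested were, and none had an unadjusted p under 0.05. Of the 34, 33 were positive with a median log2 difference of 0.44, beside -0.01 over all genes. All groups overlapped, since each group held 1 library far below its other 2. Summed over the 34 genes the level was 2084, 1931 and 678 TPM in ENU 1 to 3, against 1884, 1507 and 384 TPM in mock 1 to 3. Mock 3 was lowest for 33 genes and ENU 3 for Nuf2, and ENU 1 was highest for 26.

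Anln had 110, 110 and 52.0 TPM in ENU 1 to 3, against 86.2, 83.3 and 30.3 TPM in mock 1 to 3. Both libraries numbered 3 were low and each ENU value exceeded the mock value of its number, with a log2 difference of 0.50 (SE 0.50, limma adjusted p = 1.00). Prc1 had 110, 107 and 41.7 TPM after ENU, against 89.9, 82.3 and 22.5 TPM after mock (0.51), and Ube2c had 112, 104 and 41.4 TPM, against 96.8, 82.6 and 19.5 TPM (0.53). Espl1 had 9.53, 7.01 and 3.38 TPM after ENU, against 6.18, 6.68 and 1.75 TPM after mock (0.43). These 4 genes had the smallest p of the 34, and each had a limma adjusted p of 1.00. Differences lay between -0.19 for Nuf2 and 0.55 for Aurka, and the role medians between 0.37 for the kinetochore and 0.51 for the entry kinases.

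Libraries with the same number deviated from their group means together, so the numbers were taken to pair them. The pairing thus came from these same values. ENU was higher than mock in 33, 34 and 33 of the 34 genes in pairs 1, 2 and 3, with median log2 differences of 0.13, 0.34 and 0.85. It was higher in all 3 pairs for 32 genes, all but Mad2l1 and Nuf2, beside 17.7% of all genes. With the pair as a block none was called in limma (smallest adjusted p 0.483), while 20 had an unadjusted p under 0.05, all higher after ENU, beside 4.60% of all genes. Anln had a log2 difference of 0.50 there with an SE of 0.11. The size of the difference depended on the libraries kept: the median was -0.26 without mock 3, 0.94 without ENU 3 and 0.24 without both libraries numbered 3.

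**Figure D5:**
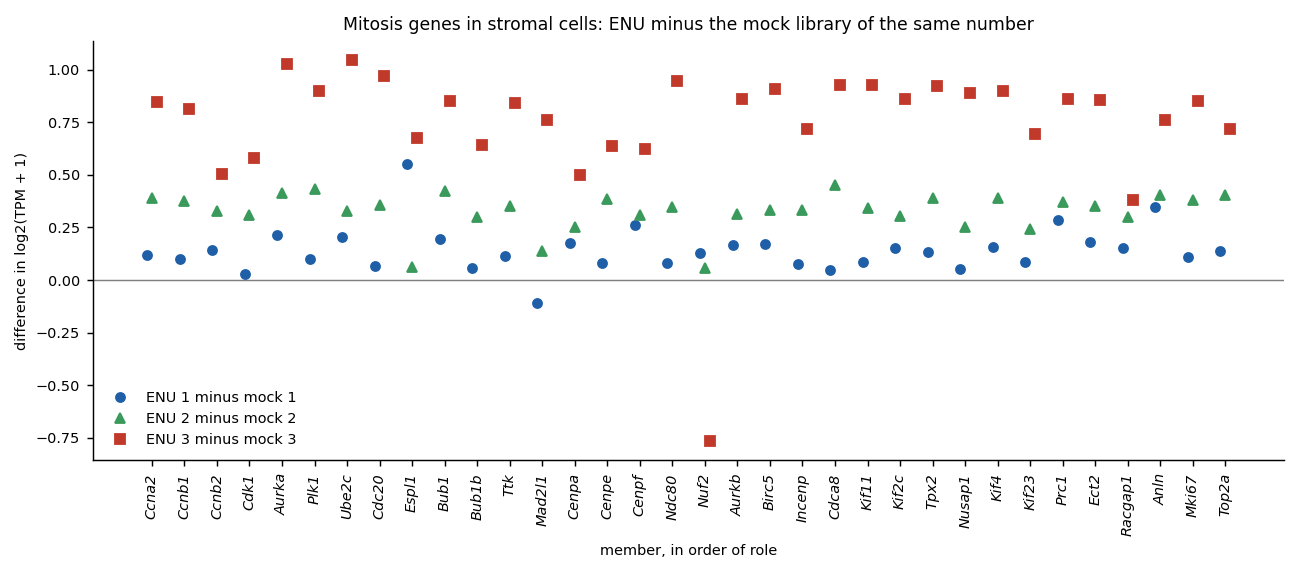
Log2(TPM + 1) of each mitosis gene in the ENU stromal library minus that in the mock library of the same number, for pairs 1, 2 and 3. Pair 3 lies highest for most genes, with a median of 0.85, and Nuf2 falls below 0 in that pair.

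The Y-linked gene Ddx3y was at 69.8, 68.1 and 87.0 TPM in ENU 1 to 3, against 0.219, 0.201 and 79.0 TPM in mock 1 to 3. Mock 1 and mock 2 thus differed from the other 4 libraries in this gene. In it, pairs 1 and 2 set unlike libraries together and pair 3 like ones. With a term for the Ddx3y difference the median of the mitosis genes was 1.84. That fit sets the ENU libraries against mock 3 alone, the lowest library for 33 of the genes. The part of the Ddx3y difference in the result was not tested. Of the 56 further mitosis genes 54 were positive with a median of 0.36 and of the 30 replication genes 28 with a median of 0.26, with 0 called and 0 at an unadjusted p under 0.05 in either list. Cdkn1a had 314, 320 and 618 TPM in ENU 1 to 3, against 278, 339 and 391.5 TPM in mock 1 to 3, with its highest value in the ENU library whose mitosis genes were lowest. Cdkn2a, which encodes the p16 and p19 inhibitors in mouse, averaged 92.5 TPM after ENU and 62.8 TPM after mock (0.55, limma adjusted p = 1.00). Cdkn1c (-0.57) and the replication licensing gene Cdt1 (0.26) followed it in order of p. Foxm1 averaged 26.2 and 20.5 TPM, Mybl2 7.25 and 5.71 TPM and Trp53 115.1 and 101.1 TPM, after ENU and mock in each case. Stromal markers summed to 2057 to 7594 TPM after ENU, against 4038 to 6753 TPM after mock, and the 10 T and NK cell markers to 1.03 to 1.86 TPM after ENU, against 1.54 to 2.46 TPM after mock. Of those 10, Cd3e, Cd3g and Ncr1 were at 0 in all 6 libraries, and Cd3d (0.308 to 0.567 TPM after ENU, against 0.508 to 1.40 TPM after mock) and Lck were above 0 in all.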

How the data were processed

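RNA from LSK cells, marrow and stromal cells was made into stranded poly-A libraries, per the labels' protocols. The submitters' processing notes name mm10 as the genome and, with no versions, edgeR, SAMtools, TopHat, FastQC and bcl2fastq. No source used here gives the counting program, annotation, scaling or strand setting. The authors deposited LSK and marrow values as a normalised signal per gene. These are named as CPM, but their totals are not those of CPM and differ between libraries, so they were treated as a signal. They deposited stromal values as TPM.

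In the marrow table, 155 of 11430 rows repeated another row under another name and were merged. Its deposited values were whole multiples of 1 read per library for 99.99% of values in AML 1 and 100% in the other libraries, within 0.05 reads, and these recovered counts were used in an alternative.

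Log2(value + 1) was tested in each table with limma 3.58.1 (R 4.3.3, with a mean-variance trend) and all groups of the table in 1 fit. Genes had to reach a value of 1 in as many libraries as the smaller group holds, which all 34 did, and p-values were adjusted by Benjamini-Hochberg over them. Differences on this scale understate those of low genes. CPM had been assumed for the design, and its test was kept. The code was tested on simulated data with 200 changed genes. The alternatives tried were the replicate block, median-of-ratios rescaling, a pseudocount of 0.1, testing without the filter, fits of the compared groups alone, edgeR 4.0.16 on recovered reads, leaving out each library, and the added alternatives for LSK and stromal libraries.

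In stromal cells, deviations from group means of libraries with the same number correlated at 0.57, 0.71 and 0.74 over genes, and at most at 0.33 with another number, so the numbers were taken as pairs. In each comparison the called genes, or the 4 with the smallest p, are named, as are up to 3 other cell-cycle genes of smallest p. Foxm1, Mybl2, Trp53 and Cdkn1a are always given. Members, lists and rules were chosen with earlier results of these data known.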

Additional observations from a re-analysis of the deposited data

Results flagged for a closer look

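In the groups of 6 marrow libraries 70 tests were run, and 7 found the highest library of a mitosis gene far from the next. Far meant a gap over Dixon's 95% critical value of 0.625 of the range. Chance flags about 1 group in 20, but the tests share libraries and are not independent. MDS 1 stood out in 5 of the 7. Its signal was 141 for Aurka, against 92.9 in the next MDS library, 4570 for Mki67, against 2638, and 328 for the kinetochore motor Cenpe, against 205. It was 344 for the spindle assembly factor Tpx2, against 254, and 144 for Ect2, the exchange factor of the contractile ring, against 98.1. In AML the signal of Prc1 was 119 in AML 1, against 79.0 in the next library, and that of Anln was 147 in AML 3, against 93.8.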

How the results depend on the processing

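Of the counts of called mitosis genes under alternatives, 94 stayed within 1.5 times, 8 grew and 8 shrank, and of the medians 106 moved by less than their spread and 4 by more. Most of the 94 were 0 called in the main fit and 0 in the alternative, which cannot show that a call is stable. Only AML against MDS had a call in its main fit. For transplanted WT against WT, 9 genes were called with a term for the 3 libraries that stood apart, 8 without those libraries (median 0.35) and 7 with the term and the length trend removed. With the trend removed, 0 were called without those libraries. For EAP with ENU against EAP, leaving them out and removing the trend gave a median of 0.15 and turned Cenpf to 0.16. For EAP against transplanted WT, medians ran from -0.027 to 0.18 when 1 library was left out. For AML against MDS, between 0 and 5 genes were called when 1 library was left out, and for the ENU-exposed AML between 0 and 1. In stromal cells the median was 1.84 with a term for the Ddx3y difference, which sets the ENU libraries against mock 3 alone. When 1 library was left out, Espl1 ran from -0.049 to 0.78, Prc1 from -0.12 to 0.96 and Ube2c from -0.18 to 0.98, each lowest without mock 3. Their cause was not tested.

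With the replicate number as a block, 0 mitosis genes were called in the LSK and stromal comparisons and 1 for AML against MDS, as without it, and the block changed no other call. Same-numbered LSK libraries correlated between -0.75 and 0.41 and marrow libraries between -0.16 and 0.25, so there they share only a number.

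In groups of 3 libraries each library weighs on the result. Depth and scaling of the LSK and stromal values are unknown, and low values, such as those of Espl1 in LSK cells, have a wide relative spread.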
